A study of Homo sapiens with 30 samples.

Results

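The beta-globin locus was described in 30 CUT&Tag libraries of K562 cells through the peaks that the authors called in each library. The locus was taken as the 80 kb of hg19 at chr11:5240001-5320000, which holds the genes HBB, HBD, HBG1, HBG2 and HBE1 and the locus control region (LCR). Its members were the 5 genes and every peak that touched these 80 kb: 129 of the 587932 peaks in the 30 SEACR lists, and 54 of the 157073 peaks in the 6 MACS2 lists. The rule for genes and coordinates holds no measured value, but it was chosen with earlier results of these data known.

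The beta-globin genes encode the beta-type chains of haemoglobin and lie in the order in which they are used in development, with embryonic HBE1 nearest to the LCR, then fetal HBG2 and HBG1, then adult HBD and HBB. The LCR is a group of DNase hypersensitive sites (HS) upstream of HBE1 that acts as the enhancer of the whole cluster and contacts the active gene. K562, an established human chronic myeloid leukaemia line with erythroid features, is known for making embryonic and fetal rather than adult globin.

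CUT&Tag directs a transposase to antibody-bound chromatin and sequences the DNA it cuts there. H3K27ac, found at active promoters and enhancers, was profiled in 25 libraries and H3K27me3, the mark of Polycomb repression, in 5. Each library came from 500000 K562 cells and was the only one of its condition, so no single value has a replicate error. Nothing in the sources used here says that the cultures were separate, and p-values below measure only the spread among protocol conditions.

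The 4 H3K27ac antibodies were Abcam ab177178 (6 lists), Abcam ab4729 (6 lists), Active Motif 39133 (5 lists) and Diagenode C15410196 (8 lists, of which 6 at a dilution of 1/50 and 2 at 1/100). All other lists were at 1/100, as was the 1 antibody to H3K27me3, CST9733. With SDS extraction and 15 PCR cycles there were 6 untreated libraries and 4 H3K27ac libraries with trichostatin A (TSA), an inhibitor of histone deacetylases. The other 20 libraries were untreated, combined 11 or 13 cycles with SDS or column extraction for 4 H3K27ac antibodies and the H3K27me3 antibody, and had been downsampled to equal depth before peak calling, as the labels state. The lists at 15 cycles are not described as downsampled, and the depth behind every list is unknown. H3K27ac lists held 3024 to 22808 SEACR peaks and H3K27me3 lists 65283 to 106997.

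One library stood apart before any result at the locus. The column-extracted H3K27me3 list at 11 cycles overlapped a median of 20.4% of the peaks of the 16 downsampled H3K27ac lists, against medians of 4.64% to 9.91% for the other 4 H3K27me3 lists. It was also the only H3K27me3 list with a peak in the locus, so results on H3K27me3 are given with and without it.

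Each gene was read in a window of 2 kb centred on its start, which lies at position 5248301 for HBB, 5255878 for HBD, 5271087 for HBG1, 5276011 for HBG2 and 5291373 for HBE1, all transcribed from the minus strand. HS1 to HS5 were read in 2 kb windows set 5 to 7, 10 to 12, 14 to 16, 17 to 19 and 21 to 23 kb upstream of the HBE1 start. These are approximate textbook distances and not an annotation of the genome build. A window counted as holding a peak when the 2 shared at least 1 bp. HBG1 and HBG2 are near-identical copies whose starts lie 4924 bp apart. The sources used here do not say how reads that fit both copies were placed, so every value that tells HBG1 from HBG2 is uncertain.

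The sequence before the HBD start is shown because HBD, the minor adult gene, was the one adult-type gene with peaks in several lists, and because RefSeq's promoter table in hand held this member and not the other 4. It is 300 bases of GRCh38.p14, minus strand, chr11:5234434-5234733, from 250 bases before the start to 50 after it, and was not converted to hg19. Capitals mark matches to CCAAT (the letters of the CCAAT box), to ATAAA (the letters of the TATA-like box of globin genes) and to GATA (the core letters read by GATA factors). Matching was by letters alone, at any distance from the start, so a match need not be the box itself. CACCC, the letters read by KLF factors, was searched too, and both strands were read for each.
HBD promoter: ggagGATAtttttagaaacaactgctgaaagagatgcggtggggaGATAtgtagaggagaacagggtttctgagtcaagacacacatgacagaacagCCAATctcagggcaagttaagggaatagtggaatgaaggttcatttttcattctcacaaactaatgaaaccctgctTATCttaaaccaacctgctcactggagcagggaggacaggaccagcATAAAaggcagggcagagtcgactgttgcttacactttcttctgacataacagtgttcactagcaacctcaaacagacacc
GATA matched 3 times, 2 times as printed and once on the opposite strand as TATC at bases -77 to -74 from the start. CCAAT matched at bases -153 to -149 and ATAAA at -31 to -27, with no overlap among the matches. CACCC did not match, which says only that these letters are not in the 300 bases. Among 35116 RefSeq promoters of this length, 34.6% held CCAAT, 34.9% ATAAA, 49.7% GATA and 59.9% CACCC. The matches are a description of the letters and say nothing of binding.

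H3K27ac peaks lay at the fetal genes, and in at least 1 site window of the LCR, in most lists. HBG1 held one in 22 of 25 lists and HBG2 in 20, whereas HBD held one in 6, HBB in 1 and HBE1 in none. Across 1517543 bins of 2 kb on chromosomes 1 to 22 and X, 0.108% held a peak in at least 22 H3K27ac lists, 0.175% in at least 20, 1.2% in at least 6 and 4.47% in at least 1. The counts at HBG1 and HBG2 were thus reached by few bins of the genome, that at HBB by far more, and HBE1 was like the large majority of bins in having no peak. The map of peaks along the locus and the plot of presence per window show this pattern.

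**Figure D1:**
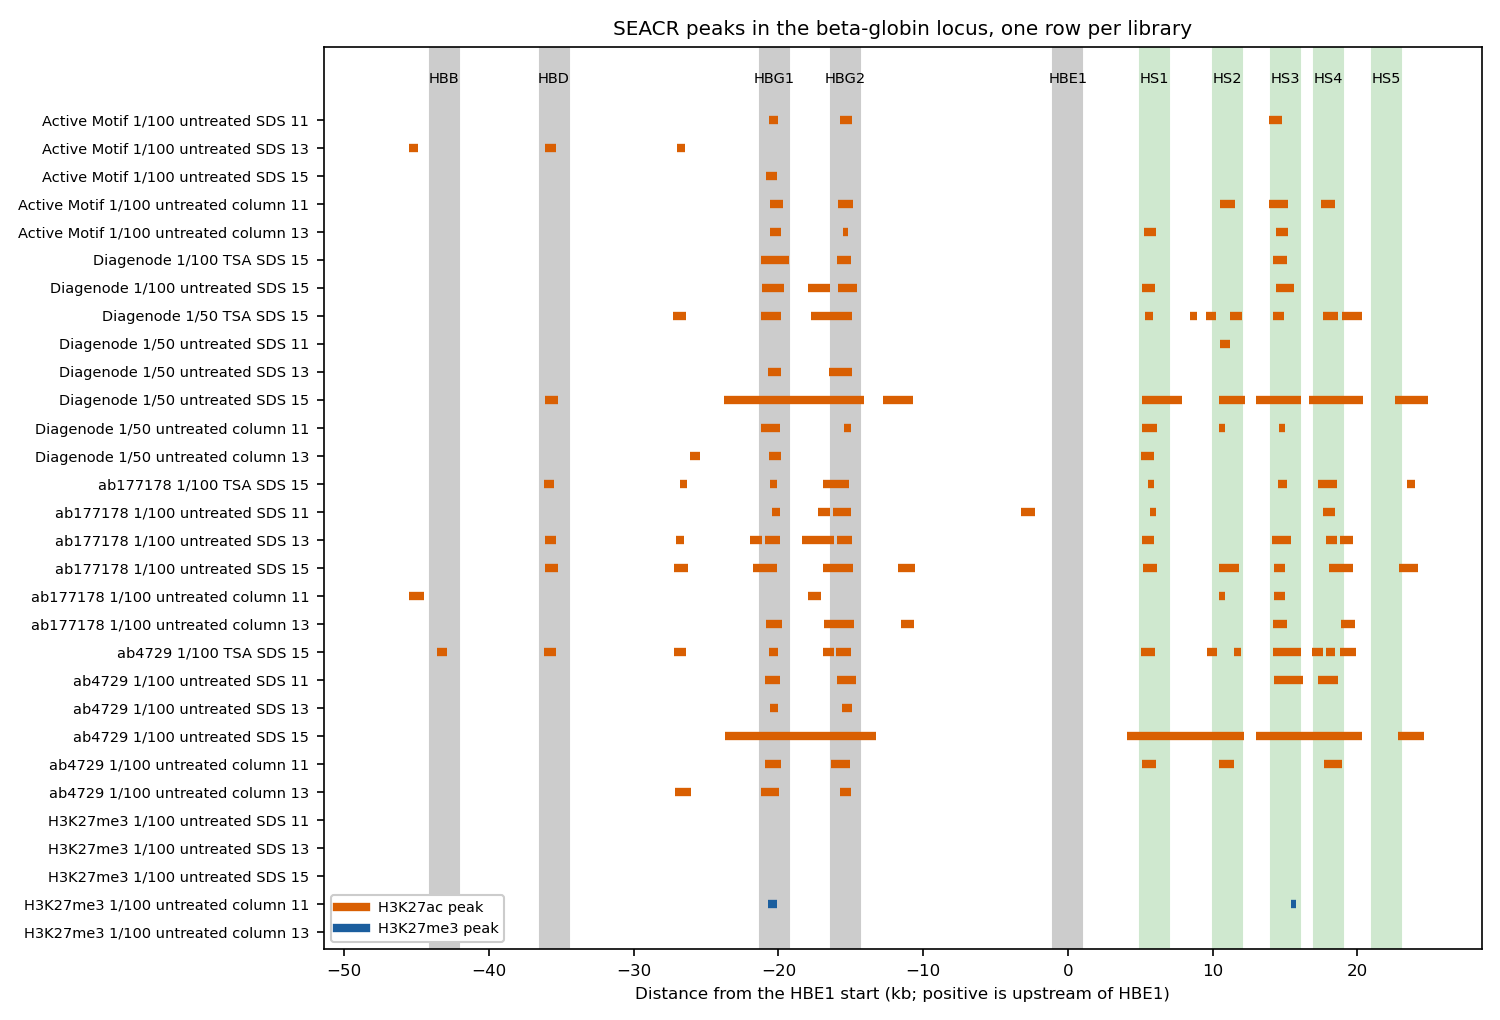
SEACR peaks (bars) of the 30 libraries (rows, named by antibody, dilution, treatment, extraction and cycles) against distance from the HBE1 start in kb. Grey bands are the 5 gene windows and green bands the 5 hypersensitive site windows. H3K27ac bars stack at HBG1, HBG2 and the LCR, and the 2 H3K27me3 bars belong to the same list.

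HBG1 and HBG2 encode the gamma chains of fetal haemoglobin. Both windows held an H3K27ac peak in 20 of 25 lists, HBG1 alone did in 2, HBG2 alone in none, and neither in 3. The 3 lists without a gamma peak were ab177178 column at 11 cycles, Active Motif SDS at 13 cycles and Diagenode 1/50 SDS at 11 cycles. By antibody, HBG1 had a peak in 6 of 6 ab4729 lists, 5 of 6 ab177178 lists, 4 of 5 Active Motif lists and 7 of 8 Diagenode lists. Lists without a gamma peak thus came from 3 of the 4 antibodies, and all 3 were downsampled lists. The ab177178 one had a peak at 5273399 to 5274299, between the gamma windows.

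The share of the HBG1 window covered by peaks averaged 48.1% ± 27.8 (SD, n = 25 lists) and that of HBG2 48.2% ± 31.3. Peak width was 504 bp at the narrowest, 1054 bp at the median and 10415 bp at the widest at HBG1, and 324 bp, 1304 bp and 10415 bp at HBG2. A single peak joined both genes in 2 lists, one of 10415 bp with untreated ab4729 and one of 9637 bp with untreated Diagenode 1/50, both at 15 cycles. In the other 18 lists with both genes the peaks were separate.

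SEACR gives each peak a total signal, the sum of its coverage, and peaks were ranked by it within their own list, with 100 as the strongest percentile. The HBG1 peak ranked at a median percentile of 66.2 over 22 lists, with 1.84 as the lowest and 97.0 as the highest. At HBG2 the median was 76.2 over 20 lists, with a range of 0.69 to 97.0. The peaks were therefore near the top of some lists and near the bottom of others. The strongest peak of the whole locus lay at HBG1 or HBG2 in 20 of 25 lists. Among the 18 lists with separate peaks, HBG2 ranked above HBG1 in 12 and below it in 6. Ranked by the maximum signal, which does not grow with width, the medians were 85.2 at HBG1 and 85.5 at HBG2. Both genes' percentiles thus stood higher by height than by total.

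SEACR also reports the stretch where a peak is highest. At HBG1 its middle lay a median of 57.5 bp upstream of the start, from 202.5 bp downstream to 153 bp upstream, in 20 lists. At HBG2 it lay a median of 74 bp upstream, from 510 bp downstream to 192 bp upstream, in 19 lists. It was within 200 bp of the start in 19 of 20 lists at HBG1 and in 16 of 19 at HBG2. In 5 of the 17 lists with a maximum in both windows, the offset from the start was the same number of base pairs at both copies. Whether shared reads between the copies set this was not tested.

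**Figure D2:**
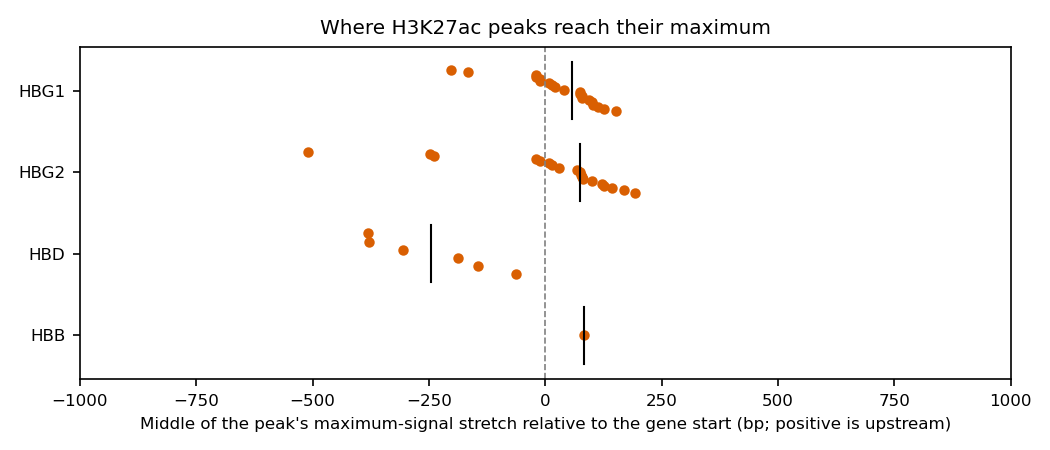
Middle of the stretch of maximum signal of H3K27ac SEACR peaks, in bp from the gene start, positive upstream; each point is a list and black lines are medians. Maxima at HBG1 and HBG2 gather around the start, those at HBD lie downstream of the start used here, and HBB has a single point. The HBD start was not matched to that of the printed promoter, so the HBD offsets depend on the start used.

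HBD encodes the delta chain, a minor adult chain, and HBB the adult beta chain. An HBD peak was present with ab177178 in 3 lists (untreated and TSA at 15 cycles, and SDS at 13 cycles) and in 1 list each of ab4729 (TSA), Active Motif (SDS at 13 cycles) and Diagenode 1/50 (untreated at 15 cycles). It was 650 to 943 bp wide, with a median rank percentile of 44.2 (13.3 to 66.9). By total signal per base the HBD median was 76.95 over 6 lists, beside 72.2 for HBG1 over 22 lists and 73.6 for HBG2 over 20. These medians come from unlike sets of lists and do not order HBD against the gamma genes. Within the 5 lists with HBD and gamma peaks, the order by signal per base went both ways. HBD stood at 79.2 against 56.2 for the joined gamma peak with untreated Diagenode 1/50 at 15 cycles. With ab4729 and TSA it stood at 80.3 against 83.4 at HBG1 and 86.6 at HBG2. Its maximum lay downstream of the start used here in 6 of 6 lists, by 62.5 to 380 bp. The printed promoter comes from another genome build and its start was not matched to this one. Whether these maxima fall inside the printed promoter was therefore not tested. The only HBB peak was 670 bp wide, in the ab4729 TSA list, at percentile 12.5 by total signal, 66.85 by maximum signal and 35.2 by signal per base. HBB and HBD thus held peaks in fewer lists than the gamma genes.

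Within each list, the mean share covered of the fetal windows was set against that of the adult windows. Fetal windows were covered to 48.1% ± 27.1 (SD, n = 25 lists) and adult windows to 5.44% ± 10.4. The fetal share was higher in 22 lists, lower in 1 and equal at 0 in 2. The difference was 42.7 ± 27.9 percentage points (SD), and a two-sided sign-flip permutation test over 100000 resamples gave p = 1e-05, the smallest they can give (adjusted p = 4.5e-05 over 9 tests). In the 16 downsampled lists alone it was 36.1 points. With the mean of each of the 4 antibodies as the unit it was 41.1 points, and the exact permutation p of 0.125 was the smallest that 4 units allow.

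HBE1, the embryonic epsilon gene, had no SEACR peak in its window in any of the 25 H3K27ac lists or the 5 H3K27me3 lists. The nearest H3K27ac peak was 971 bp wide and ended 2.27 kb from the HBE1 start on the downstream side, in the ab177178 SDS list at 11 cycles. No peak in a list is not evidence that the mark is absent, since a list holds only what passed the caller's threshold at an unknown depth. In bulk cells, fewer cells with a mark and less mark per cell cannot be told apart.

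**Figure D3:**
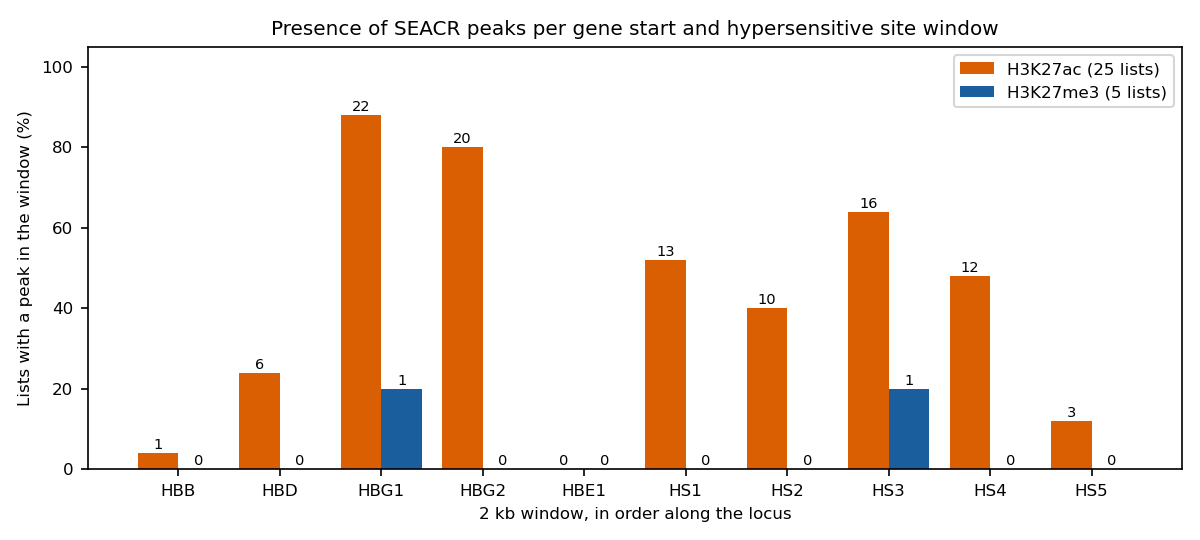
Percent of SEACR lists with a peak in each 2 kb window, in order along the locus, for 25 H3K27ac and 5 H3K27me3 lists, with the number of lists above each bar. H3K27ac is highest at HBG1 with 22 lists and HBG2 with 20, and HBE1 has none.

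In most lists at least 1 of the 5 site windows of the LCR held an H3K27ac peak. Each single site held one in fewer lists than HBG1 or HBG2. HS3 held a peak in 16 of 25 lists, HS1 in 13, HS4 in 12, HS2 in 10 and HS5 in 3, counts reached by 0.344%, 0.506%, 0.573%, 0.729% and 1.99% of 2 kb bins. HS2 and HS3 are known as the sites with the strongest enhancer activity, and HS5 as a site bound by the insulator protein CTCF. These counts depend on the peaks required: when a peak had to cover 50% of the window they were 7 at HS3, 3 at HS1, 7 at HS4, 6 at HS2 and 0 at HS5, and in the stronger 50% of each list 9, 5, 6, 2 and 1. At least 1 site window held a peak in 20 lists and at least 3 did in 10. No share of the genome was computed for a set of 5 windows, so these 2 counts have no background. A gamma peak and a site peak were found together in 18 lists, a gamma peak without one in 4, and a site peak without a gamma peak in 2.

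Median rank percentiles were 60.8 at HS3 (1.8 to 90.7), 50.2 at HS4 (10.4 to 90.1), 36.9 at HS1 (3.76 to 91.5) and 25.8 at HS2 (6.94 to 91.5). By maximum signal the order was different, with 80.3 at HS1, 78.0 at HS2, 67.0 at HS3 and 51.9 at HS4. HS1 and HS2 peaks thus stood low by total signal and high by height, and their median widths were 900 and 862 bp, against 974.5 bp at HS3 and 1288 bp at HS4. The ranges are wide and overlap, but each site was read in its own set of lists. Within lists the order of HS3 and HS4 by total signal was not fixed. HS4 ranked above HS3 with untreated ab177178 at 15 cycles (67.55 against 7.66). In the ab4729 TSA list HS4 ranked below HS3 (77.5 against 90.7).

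**Figure D4:**
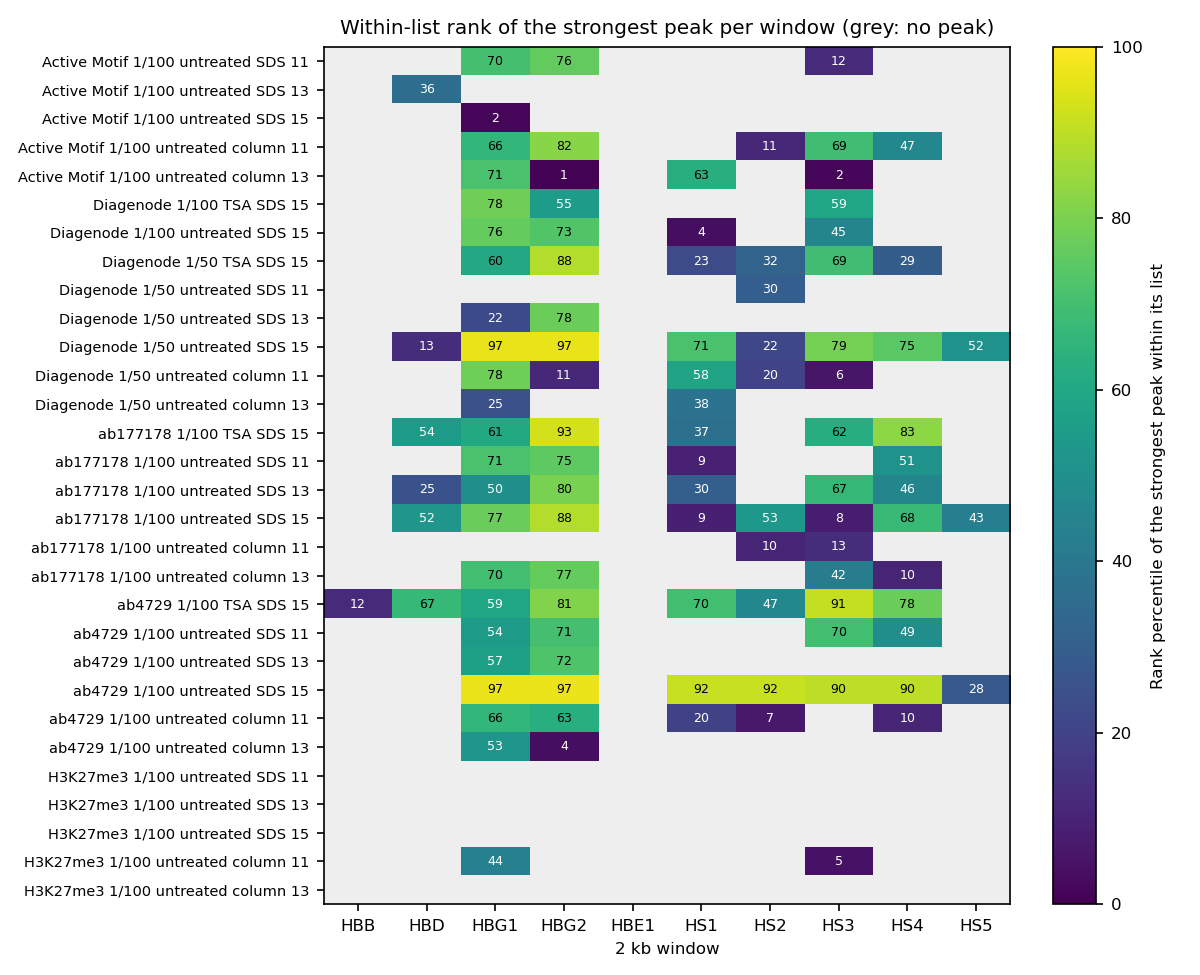
Percentile rank, by total signal within its own list, of the strongest SEACR peak in each 2 kb window (columns) for each library (rows); grey means no peak. Percentiles at HBG1 and HBG2 run from 0.69 to 97.0, and the site windows are filled in most at 15 cycles.

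Maxima were read for the strongest peak of each window, where they fell inside it. They gathered at particular positions at HS1 and HS3. They lay 5.42 to 5.87 kb upstream of the HBE1 start at HS1 (median 5.83, 13 lists) and 14.41 to 14.82 kb at HS3 (median 14.58, 15 lists). At HS2 they lay 10.04 to 10.85 kb upstream (median 10.64, 8 lists). Other peaks touching the HS2 window included maxima at 9.955 and 11.631 kb (Diagenode 1/50 with TSA) and 11.632 kb (ab4729 with TSA). At HS4 the maxima of the strongest peaks spread from 17.43 to 18.97 kb (11 lists). The 3 HS5 peaks, 1305 to 2239 bp wide, crossed only the far edge of the window, and their maxima lay beyond it. One further list, ab177178 with TSA, had a peak just beyond that window at 5314818 to 5315351.

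By antibody, ab177178 had a peak at HS3 in 5 of 6 lists and at HS4 in 5 of 6, and ab4729 at HS3 in 3 of 6 and HS4 in 4 of 6. Diagenode had HS3 in 5 of 8 and HS4 in 2 of 8, and Active Motif HS3 in 3 of 5 and HS4 in 1 of 5. In the untreated ab4729 list at 15 cycles, a peak of 8065 bp covered HS1 with HS2 and a peak of 7293 bp covered HS3 with HS4. In the other 24 lists no peak joined site windows.

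Coverage of the 5 site windows averaged 22.5% ± 22.4 (SD, n = 25 lists), against 21.4% ± 12.1 for the 5 gene windows. The difference of 1.1 percentage points was positive in 13 lists and negative in 12, with an SD of 15.1 points over lists, and the test did not separate it from 0 (two-sided sign-flip permutation test, p = 0.723, adjusted p = 0.87). It turned negative under several other settings, among them -2.54 points in the downsampled lists. Both means mix unlike windows. Mean coverage was 48.1% at HBG1 and 48.2% at HBG2, against 9.55% at HBD, 1.34% at HBB and 0% at HBE1. Among the sites it ran from 1.52% at HS5, where peaks crossed only the window's edge, to 36.4% at HS3.

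Outside the windows, 8 lists had a peak between HBD and HBG1, all within 5264126 to 5265963 and 467 to 1123 bp wide. Of all 2 kb bins, 0.928% held a peak in at least 8 H3K27ac lists; the stretch was picked out after the peaks had been seen. RefSeq's gene order on GRCh38 places the pseudogene HBBP1 and the noncoding RNA gene BGLT3 between HBD and HBG1; no gene of hg19 was assigned to these peaks. Their rank percentiles ran from 0.57 to 59.0. They came from all 4 antibodies, in 3 of 4 TSA lists, 1 of their 4 untreated partners, 4 of 8 lists at 13 cycles and 0 of 8 at 11 cycles. MACS2 called a peak in the same stretch in 3 of those 4 untreated partners (ab177178, ab4729 and Diagenode 1/50), so the count with and without TSA rests on the SEACR lists alone. Another 2 lists had a peak between 5245856 and 5246863, downstream of the HBB start and outside its window.

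H3K27me3 had 2 peaks in the locus, both in the column list at 11 cycles. One, of 633 bp at 5270653 to 5271285, lay over the HBG1 start, where 22 of 25 H3K27ac lists also had a peak, and ranked at percentile 43.8 of its list. The other, of 365 bp at 5306777 to 5307141, lay in the HS3 window at percentile 5.04 and was overlapped by 5 H3K27ac lists. In the other 4 H3K27me3 lists 0% of the locus was covered. For scale, 12.5% of 2 kb bins held a peak in at least 1 H3K27me3 list and 87.5% in none. Among tiles of 80 kb, the length of the locus, 29.25% to 34.49% held a peak in each H3K27me3 list, so a stretch of this length without one was the usual state.

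H3K27ac peaks covered 0.853% of the locus in the lowest list, 6.25% at the median and 34.5% in the highest, a mean of 8.39% ± 8.64 (SD, n = 25 lists). H3K27me3 covered 0.25% ± 0.558 (n = 5), from 0 in 4 lists to 1.25% in the column list at 11 cycles, so the groups overlapped through that list alone. The difference of 8.14 points had a two-sided exact permutation p of 0.0371 and an adjusted p of 0.111. Without the column list at 11 cycles it was 8.39 points, with an exact permutation p of 0.0493 and an adjusted p of 0.148. In the downsampled lists alone it was 4.51 points, with an adjusted p of 0.0291 by the same exact test.

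The marks differ in how much of the genome they cover, so the locus was also set against each list's whole coverage, as log2 of (percent of locus + 1) over (percent of genome + 1). This enrichment was 2.37 ± 0.87 for H3K27ac (SD, n = 25) and -1.47 ± 0.79 for H3K27me3 (SD, n = 5). The log2 difference was 3.85 (two-sided exact permutation test, p = 7.02e-06, the smallest it can give, adjusted p = 4.5e-05), 4.12 without the H3K27me3 column list at 11 cycles, and 7.61 with a pseudocount of 0.1 in place of 1. In 4 of the 5 H3K27me3 lists the locus was at 0%, so their value is set by the pseudocount and the genome coverage alone, and any empty tile would have it. The test therefore does not show that the locus holds less H3K27me3 than other tiles. Among 37928 tiles of 80 kb, the mean H3K27ac coverage of the locus was above that of 99.63% of tiles. The mean H3K27me3 coverage of the locus was above that of 64.02% of tiles, most of which were at 0% in each list. That mean came from the column list at 11 cycles alone, where the locus was above 77.99% of tiles. In each of the other 4 lists the locus was at 0%, above 0% of tiles.

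The study asked how antibody, TSA, extraction and PCR cycles change such profiles, and the locus was read for each in H3K27ac lists paired by the remaining conditions. TSA lists covered less of the locus than their untreated partners in 4 of 4 pairs. Locus peaks numbered 8 with TSA against 10 without for ab177178 and 3 against 5 for Diagenode 1/100. They numbered 13 against 4 for ab4729 and 10 against 8 for Diagenode 1/50, so coverage and peak number did not always move together. Coverage was 7.83% with TSA against 16.01% without for ab177178, 14.04% against 34.5% for ab4729, 13.6% against 32.7% for Diagenode 1/50 and 4.86% against 8.11% for Diagenode 1/100. The mean difference was -12.7 ± 8.38 points (SD, n = 4 pairs), and the two-sided exact sign-flip permutation p of 0.125 is the smallest that 4 pairs allow (adjusted p = 0.281).

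Peaks covered less of the whole genome in the TSA lists too, at 0.191% to 0.833% against 0.395% to 1.43% in their partners. As a plain ratio of locus to genome coverage, the locus stood at 37.5 with TSA against 17.7 without for ab177178, 50.8 against 31.1 for Diagenode 1/50 and 25.4 against 20.5 for Diagenode 1/100. For ab4729 it stood at 16.8 with TSA against 24.2 without. The ratio was thus higher with TSA in 3 of 4 pairs, the opposite of coverage itself. It was computed after coverage had been seen and was not tested. The log2 enrichment with a pseudocount of 1, used above for the marks, was lower with TSA in all 4 pairs. With TSA against without, it was 2.87 against 3.16 for ab177178 and 3.04 against 3.87 for ab4729. For Diagenode it was 3.53 against 4.04 at 1/50 and 2.3 against 2.71 at 1/100. The direction relative to the genome thus depends on the measure. Depth may differ within these pairs and its part was not tested.

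Peaks stayed present under TSA at HBG1 and HBG2 in 4 of 4 lists and at HS3 in 4 of 4, as in the untreated partners. HS5 had a peak in 3 of 4 untreated lists and 0 of 4 TSA lists, HS1 in 4 and 3, HS2 in 3 and 2, HS4 in 3 and 3, and HBD in 2 and 2. The 3 untreated HS5 peaks crossed only the window's edge, with maxima 23.79 to 23.96 kb upstream of the HBE1 start, and the ab177178 TSA peak just beyond that edge had its maximum at 23.69 kb, so the HS5 counts depend on where the window ends. With 4 lists on each side none of these counts was tested.

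**Figure D5:**
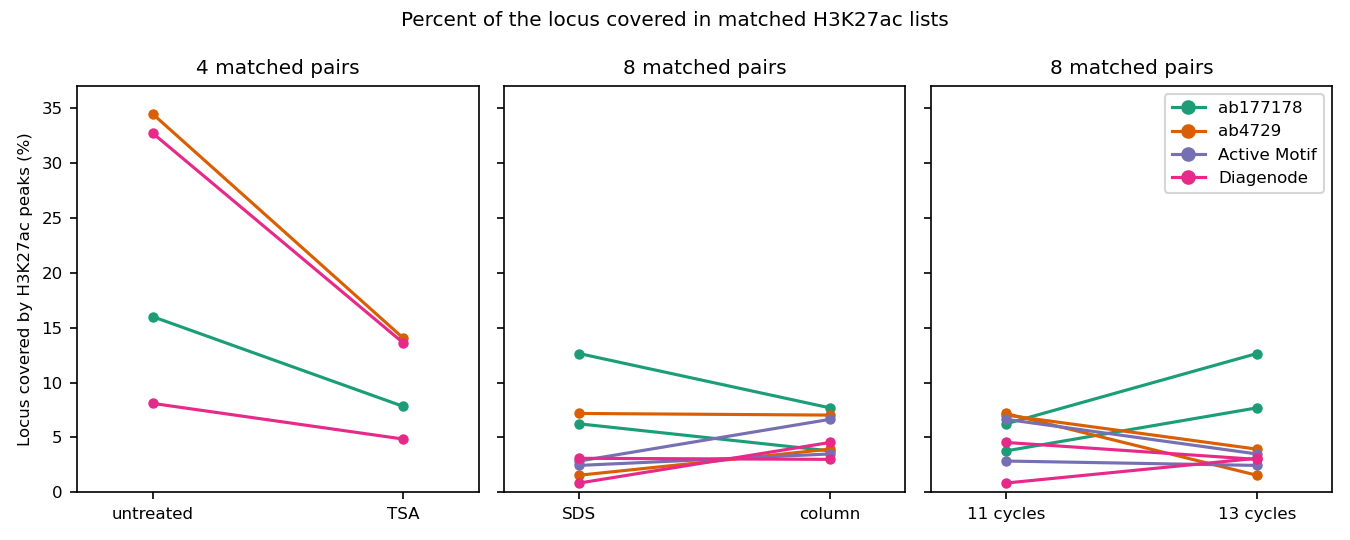
Percent of the locus covered by H3K27ac SEACR peaks in paired lists joined by lines, for TSA (4 pairs), extraction (8 pairs) and cycle number (8 pairs), coloured by antibody. All 4 lines fall with TSA, and lines go both ways for extraction and cycles.

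Column and SDS extraction gave similar mean coverage of the locus in 8 matched downsampled pairs, 5.02% ± 1.82 and 4.61% ± 3.91 (SD). Column was higher in 4 pairs and lower in 4, by differences from -4.95 points (ab177178 at 13 cycles) to 3.8 points (Active Motif at 11 cycles). The mean difference of 0.408 ± 3.03 points was small beside these differences (exact two-sided sign-flip permutation test, p = 0.773, adjusted p = 0.87). HS2 had a peak in 4 of 8 column lists and 1 of 8 SDS lists, HS3 in 5 and 3, and HBG1 in 7 and 6. HBD had one in 0 of 8 column lists and 2 of 8 SDS lists.

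Coverage was 4.74% ± 3.67 at 13 cycles and 4.9% ± 2.29 at 11 cycles (SD, 8 pairs). It was higher at 13 cycles in 3 pairs and lower in 5. The difference of -0.156 ± 4.05 points was far inside the differences between pairs (exact two-sided sign-flip permutation test, p = 0.914, adjusted p = 0.914). HS2 held a peak in 5 of 8 lists at 11 cycles and 0 of 8 at 13, while HBD held one in 0 of 8 and 2 of 8. These counts by window were read after the fact and were not tested.

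Between antibodies, ab4729 covered 11.4% ± 12.1 of the locus and ab177178 9.03% ± 4.48 (SD, 6 pairs). The difference ranged from -11.1 points (SDS at 13 cycles) to 18.5 points (untreated at 15 cycles), with a mean of 2.34 ± 9.95 (exact two-sided sign-flip permutation test, p = 0.625, adjusted p = 0.87). Without the untreated pair at 15 cycles the mean was -0.883 points. Against Diagenode 1/50, which covered 9.64% ± 12.1, ab4729 was higher in 5 of 6 matched pairs by a mean of 1.73 ± 2.64 points (exact two-sided sign-flip permutation test, p = 0.156, adjusted p = 0.281). Both comparisons use the same ab4729 lists, and the smallest p that 6 pairs allow is 0.0312. With the p-values of the other tests as they were, even this smallest p would not pass the threshold after adjustment over 9 tests. The number of pairs thus kept either comparison from passing, whatever the spread among pairs. Neither test can decide whether the antibodies differ in coverage of the locus.

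MACS2, a caller that scores peaks by a q-value, gave a second reading of the 6 untreated libraries at 15 cycles. HBG1 and HBG2 had a MACS2 peak in 4 of 5 H3K27ac lists, HBD, HS1, HS2 and HS3 in 3, HS4 in 2, HS5 in 1, and HBB and HBE1 in none. Of all 2 kb bins, 0.302% held one in at least 4 of these lists, 0.778% in at least 3, 1.63% in at least 2 and 2.59% in at least 1. The Active Motif list had no MACS2 peak in the locus and 1 SEACR peak, at HBG1 with percentile 1.84. The H3K27me3 list had none by either caller.

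MACS2 divided the wide domains into many peaks. In the ab4729 list it had 20 locus peaks covering 17.4%, against 4 SEACR peaks covering 34.5%, and in the Diagenode 1/50 list 23 peaks covering 16.02%, against 8 covering 32.7%. Fold enrichment as MACS2 gave it was 32.1 at HBG1 and 32.8 at HBG2 with ab4729, 21.1 and 21.9 with Diagenode 1/50, 17.2 and 18.1 with Diagenode 1/100, and 8.0 and 12.8 with ab177178. The gamma peaks ranked at percentiles 93.5 to 96.4 by q-value in the first 3 lists, and at 48.2 (HBG1) and 91.3 (HBG2) with ab177178. HBD, with no SEACR peak in the ab4729 list, had a MACS2 peak of 420 bp there at percentile 34.5.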

How the data were processed

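Per the submitters' processing notes, the tools were MACS2, SEACR, Bowtie2 2.2.9, Trim Galore 0.6.6, SAMtools 1.3.1, Picard 2.6.0, bcl2fastq and bedtools 2.25.0, with hg19 as the build and no role given; duplicates were removed, per the labels. The deposited SEACR lists hold a total and a maximum signal for each peak, unchanged from the caller's output. In the MACS2 lists the authors deposited a score, a fold enrichment (a ratio), and p-value and q-value, each as −log10, stand beside every peak; their peak names carry a q-value of 1e-05. The sources used here do not give the SEACR mode and threshold, the mapping filter or the depth. Peaks were called per library. No 2 SEACR lists were copies, since at most 1.25% of intervals were identical.

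Only peaks of chromosomes 1 to 22 and X were used, and overlapping peaks merged for coverage. Two-sided sign-flip or two-group permutation tests were exact or used 100000 resamples, with Benjamini-Hochberg adjustment over 9 tests and a threshold of 0.05. No count test was used. All 5 genes and 5 site windows are named whatever their values. Members, windows and tests were chosen with earlier results of these data known. Other globin pathway genes and cell type markers were not analysed here, because the gene table in hand is GRCh38. The code was tested on simulated data. Scripts ran in Python 3.11.15 with scipy 1.17.1, pandas 2.3.3, numpy 2.4.6 and matplotlib 3.10.9. Alternatives changed the peaks kept, the merging distance, the window and bin size, the unit, the lists, the ranking and the caller.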

Additional observations from a re-analysis of the deposited data

Results flagged for a closer look

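Among the 5 H3K27me3 libraries, the column list at 11 cycles covered 1.25% of the locus and the other 4 covered 0%, so this library lay far from the rest. With the other 4 at exactly 0, any value above 0 would have stood out in this way, so it says nothing of how unusual 1.25% is. The difference between its H3K27me3 peaks at HBG1 and HS3 and the other lists has no replicate check.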

How the results depend on the processing

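The higher H3K27ac enrichment and the higher fetal than adult coverage kept direction and call under all alternatives with a test except one: with the antibody as the unit, the fetal minus adult difference was 41.1 points with an exact permutation p of 0.125. The mark difference in coverage passed the threshold with 1 kb bins (13.6 points) and in downsampled lists (4.51 points). Site minus gene windows reversed to -5.67 points in the stronger 50% of each list, -6.46 with the 3000 strongest peaks, -2.4 with 1 kb bins, -4.02 with 1 kb windows and -2.54 in downsampled lists. Column minus SDS reversed to -0.102 points in the stronger 50%. Enrichment difference rose to 7.61 on the log2 scale with a pseudocount of 0.1 percent, chosen after seeing the data, as was leaving out the TSA lists, the Active Motif lists or the H3K27me3 column list at 11 cycles.

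Leaving out a list, pair or antibody gave 7.19 to 9.41 points for mark coverage, 3.57 to 4.12 for enrichment (log2), 38.5 to 47.7 for fetal minus adult, -0.712 to 1.82 for site minus gene windows, -15.9 to -10.2 for TSA, -0.077 to 1.17 for extraction, -1.09 to 0.625 for cycles, -0.883 to 5.03 for ab4729 minus ab177178 and 0.814 to 2.39 for ab4729 minus Diagenode. Site minus gene windows was negative without ab4729, at -0.712 points; extraction was negative without the Active Motif or the Diagenode pair at 11 cycles; cycles was positive without either ab4729 pair or the Active Motif or Diagenode column pair; ab4729 minus ab177178 was negative without the untreated pair at 15 cycles. Of 90 counts of H3K27ac lists with a peak under other settings, 25 moved: HBG1 fell from 22 to 12 lists when a peak had to cover 50% of the window, HS1 fell from 13 to 3 and HS3 from 16 to 7 under the same rule, and HBB held a peak in 3 lists with 4 kb windows and 0 without the TSA lists. Without the column list at 11 cycles, H3K27me3 peaks at HBG1 and HS3 were in 0 of 4 lists. The cause of these changes was not tested. The pairs of lists tested are matched by condition; replicate numbers pair nothing, with 1 library per condition. Depth is unknown, so a window without a peak gives no limit on the mark.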

Other observations

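The 80 kb tiles whose coverage was most like that of the locus over the 30 SEACR lists, among 6076 tiles covered in at least 10 lists, were chr1:161440001-161520000 (Pearson r = 0.963), chrX:100560001-100640000 (r = 0.961) and chr4:38640001-38720000 (r = 0.961). This is a description: all tiles of a list share its depth and number of peaks. Mean H3K27ac coverage of these tiles was 4.62%, 0.648% and 4.94%.

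No gene was assigned to these tiles. In the MACS2 lists of untreated ab4729 and Diagenode 1/50 at 15 cycles, a peak lay at 5245993 to 5246324 and at 5246003 to 5246278, in the same stretch downstream of the HBB start as the SEACR peaks of 2 other lists, ab177178 column at 11 cycles and Active Motif SDS at 13 cycles.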
